A study of Mus musculus with 9 samples.

Results

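Regulatory T (Treg) cells lacking CBP and Treg cells lacking p300 were compared, as 1 set of knockouts, with control Treg cells. For every gene the mean of both knockout group means was set against the control mean, so each knockout had the same weight. The genes described are those at which all 6 knockout arrays lay on one side of all 3 control arrays, here called separated genes. They numbered 1035 of 12393 measured genes. In 461 of them (3.72% of all genes) the knockouts were above the controls, and in 574 (4.63%) they were below. The comparison addresses which transcripts shift the same way in both knockouts relative to these controls.

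CBP (gene Crebbp) and p300 (gene Ep300) are closely related coactivators. They are recruited by transcription factors such as CREB, NF-kappaB, Smads, STATs and p53, and they acetylate histones at enhancers and promoters as well as other proteins. Treg cells are CD4+ T cells that restrain immune responses. They depend on the transcription factor Foxp3, whose acetylation by p300 stabilises it, and on signals from interleukin-2, TGF-beta and the T cell receptor.

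The 3 groups, of 3 arrays each, were CD4+CD25+ cells separated with magnets from mice of the C57Bl/6 background. CBP-deleted cells came from fl-CBP/Foxp3cre mice and p300-deleted cells from fl-p300/Foxp3cre mice. In both, a floxed allele is cut by Cre recombinase made from the Foxp3 locus, so the deletion is aimed at cells that express Foxp3. Controls are labelled Foxp3cre and are also called wild type, so whether they carry the Cre allele is not settled. If they do not, all knockout arrays also differ from all controls at the Foxp3 locus. An effect of that locus and the loss of CBP or p300 could then not be told apart in any pooled difference. The design text calls the samples of a group independent, but ages, sexes and the number of mice per sample are not given in the sources used here. CD25 also marks activated conventional T cells, which this separation would keep. In bulk samples of this kind, fewer cells of a type and less RNA per cell cannot be told apart.

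Values are log2 RMA values, 1 per probe set and array, and each gene is read by its brightest probe set. A step of 1 on this scale is a doubling of the signal, and values of different genes are not levels of their RNAs relative to each other. Array medians lay between 5.49 and 5.59. The number of arrays, 3 per group, limits the precision. Xist, which these arrays read at 3.44 to 3.80, marks a level not told from background. Eif2s3y, a gene of the Y chromosome, read 8.18 to 9.30 in the same arrays, so each held RNA of male cells. Some technical readings moved with the groups. The 18S ribosomal probe sets read 5.82, 6.20 and 8.88 in the controls and 7.39 to 9.62 in the knockouts. The difference between the 3' and the 5' Gapdh probe sets was 0.20 to 0.60 in the controls and -0.15 to 0.17 in the knockouts, with no overlap. For the actin probe sets the same difference did overlap, at 0.28 to 0.44 in the controls and 0.28 to 0.47 in the knockouts.

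The targeted genes and the sort marker were read as a check of the labels. Foxp3 read 9.75, 9.58 and 9.48 in the controls, 2.73, 2.91 and 2.97 in CBP-deleted cells and 2.58, 3.08 and 3.19 in p300-deleted cells. All 6 knockout readings were below that of Xist, so the pooled log2 difference of -6.69 (SE 0.14, limma adjusted p = 8.06e-11) is a lower bound for that fall. Which part of the Foxp3 transcript it reads, and whether it can read the transcript of an allele that carries Cre, is not given in the sources used here. A loss of the Foxp3 transcript is therefore not established. Crebbp read 7.56, 7.67 and 7.36 in the controls, 7.11 to 7.35 in CBP-deleted and 7.48 to 7.67 in p300-deleted cells, and its pooled difference of -0.15 (SE 0.10) did not pass (adjusted p = 0.450). That value averages both knockouts. For CBP deletion the Crebbp difference was -0.33 (SE 0.11, limma adjusted p = 0.123), with all CBP-deleted arrays below the controls, and for p300 deletion it was 0.03. The deleted exons are not given in the labels, so this probe set may lie outside them. Ep300 is not analysed here. Il2ra, the gene of the CD25 used for the separation, differed by 0.14 (SE 0.10, adjusted p = 0.506), and its second probe set by 0.32 with all knockout arrays on one side of the controls. Without control replicate 2 its difference was -0.00045.

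Each pooled difference was tested with limma, and 534 genes passed at an adjusted p under 0.05, 270 higher in the knockouts (2.18% of all genes) and 264 lower (2.13%). Of these, 415 were also separated, 223 higher (1.8%) and 192 lower (1.55%). Separation and test use the same values, so the one does not support the other. In the 223 higher genes the median log2 difference was 0.49, and 71 of them rose at least 1.5-fold and 13 at least 2-fold. In the 192 lower genes the median was 0.46 in size, and 61 fell at least 1.5-fold and 8 at least 2-fold. Most shifts were thus small. A further 620 separated genes did not pass, with a median size of 0.27. The other 119 genes past the test had arrays that overlapped the controls. Over all 12393 genes the median pooled difference was -0.03, and 42.6% were positive.

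The genes nearest the edge of the rule are given as a description. Gpc1, a cell surface proteoglycan, was just inside it, with the highest knockout reading, in p300-deleted replicate 1, equal to the lowest control reading within 2 decimals (6.66 each). Its pooled difference was nevertheless -1.08 (adjusted p = 0.0125). Snx12, a sorting nexin, was just inside from the other direction, with knockouts of 8.11 to 8.49 against controls of 8.06, 8.11 and 8.04. Cyp2c37 and Lamb3 were just outside, with knockout arrays that reached the lowest control (2.69 and 4.56) and pooled differences of -0.24 and -0.33 that did not pass.

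**Figure D1:**
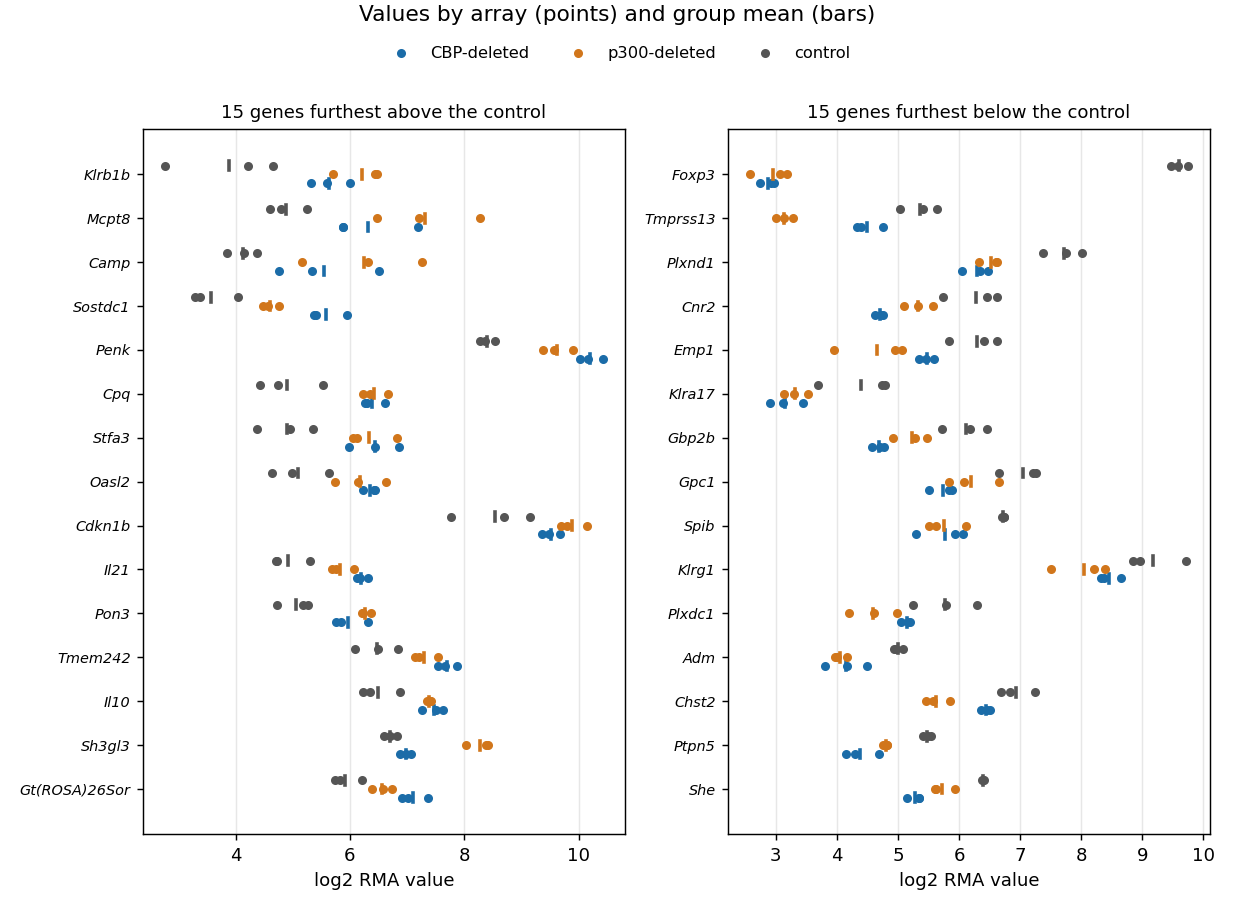
Log2 RMA values (horizontal axis) of the 15 separated genes past the test with the largest rise and the 15 with the largest fall, immunoglobulin segments left out, 1 point per array and 1 bar per group mean; CBP-deleted arrays are blue, p300-deleted orange and controls grey. In every row the 6 knockout points lie on one side of the 3 controls, as the choice of genes requires. Foxp3, at 9.48 to 9.75 in the controls and 2.58 to 3.19 in the knockouts, has by far the widest gap.

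Secreted signalling molecules were among the genes that rose furthest. Penk, the precursor of the enkephalin opioid peptides and a gene that Treg cells express, read 8.28, 8.54 and 8.36 in the controls. It read 10.17, 10.03 and 10.42 in CBP-deleted and 9.38, 9.90 and 9.56 in p300-deleted cells. The lowest knockout array was 0.84 above the highest control, the widest gap among the higher genes. Its rise of 2.86-fold (log2 1.52, SE 0.12, adjusted p = 2.09e-04) was the largest relative to its error among the higher genes and passed without each array in turn. Il21, a cytokine of follicular helper and Th17 cells that acts on B cells, read 4.71, 5.30 and 4.72 in the controls, 6.12, 6.17 and 6.31 in CBP-deleted and 5.69, 6.06 and 5.75 in p300-deleted cells. It rose 2.16-fold (log2 1.11, SE 0.15, adjusted p = 0.00550). Il10, an inhibitory cytokine that Treg cells use, read 6.35, 6.24 and 6.88 in the controls and 7.26 to 7.63 (median 7.41) in the knockouts, a rise of 1.92-fold (log2 0.94, adjusted p = 0.00664). Both kept their calls without each array in turn. Sostdc1, a secreted protein that blocks BMPs and modulates Wnt signals, read 4.04, 3.37 and 3.29 in the controls, the last pair of readings under the level of Xist in the same arrays and the first above it (3.80). In CBP-deleted cells it read 5.94, 5.41 and 5.38 and in p300-deleted cells 4.48, 4.75 and 4.57. The log2 rise of 1.52 (adjusted p = 0.00259) is therefore a lower bound, and its second probe set rose alike (1.66).

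Among secreted factors that fell was Adm, the vasodilator peptide adrenomedullin, which is induced by low oxygen. It read 4.93, 4.97 and 5.08 in the controls and 3.80 to 4.50 in the knockouts, a log2 difference of -0.89 (SE 0.14, adjusted p = 0.00813). Tgfb1, the ligand that also drives Treg cell differentiation, was lower by a smaller step. Controls read 9.43, 9.24 and 9.24 and knockouts 8.77 to 9.20, with a difference of -0.32 (SE 0.08, adjusted p = 0.0422). Its call was lost on leaving out any array other than p300-deleted replicate 3 or control replicate 2 or 3, with an adjusted p of up to 0.162 without control replicate 1. Ccl5, a chemokine of effector T cells, read 11.10, 11.24 and 11.56 in the controls and 10.52 to 11.02 in the knockouts (-0.57, adjusted p = 0.0286). That call was lost on leaving out any array other than CBP-deleted replicate 3, p300-deleted replicate 1 or control replicate 2 (adjusted p up to 0.0726).

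Receptors and other membrane proteins went both ways. Klrb1b, a lectin receptor of natural killer cells and some T cells, rose furthest of all separated genes past the test. Its controls read 4.22, 2.77 and 4.65, and replicate 2 lies under the level of Xist. The knockouts read 5.32, 6.01 and 5.60 with CBP deleted and 6.44, 6.47 and 5.70 with p300 deleted, a pooled difference of 2.04 (SE 0.34, adjusted p = 0.0106). Its 3 other probe sets were 0.21, 0.95 and 1.70 higher. Of 16 measured killer lectin receptor genes, a family counted after the values were seen, Klrb1b alone rose, and Klra17 and Klrg1 fell. Over all genes 2.18% rose and 2.13% fell. The family median was 0.04, with 9 of the 16 positive. Klra17, a Ly49 family member, read 3.68, 4.79 and 4.73 in the controls and 2.90 to 3.52 in the knockouts, at or below the level of Xist, so its difference of -1.17 (adjusted p = 0.0167) is a lower bound. Klrg1, a receptor of terminally differentiated effector and Treg cells, read 8.96, 8.86 and 9.72 in the controls and 7.51 to 8.66 in the knockouts (-0.93, adjusted p = 0.0327). Klrg1 kept its call only without p300-deleted replicate 1 or 3 or control replicate 2 (adjusted p otherwise up to 0.0795).

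Plxnd1, a receptor of semaphorins that steers cell migration, had the widest gap of the lower genes after Foxp3. Controls read 7.74, 7.38 and 8.02, CBP-deleted arrays 6.47, 6.35 and 6.06 and p300-deleted arrays 6.63, 6.32 and 6.61. That gap was 0.755, and the pooled difference was -1.31 (SE 0.14, adjusted p = 0.00181), past the threshold without each array in turn. Cnr2, the cannabinoid receptor of immune cells, read 6.45, 6.62 and 5.75 in the controls and 4.63 to 5.58 in the knockouts, a fall of 2.38-fold (-1.25, adjusted p = 0.00613). Emp1, an epithelial membrane protein, read 5.83, 6.40 and 6.62 in the controls and 3.96 to 5.60 in the knockouts (-1.22, adjusted p = 0.0175). Plxdc1, a plexin domain protein, fell by 0.90 but kept its call only without p300-deleted replicate 1 or control replicate 2 (adjusted p otherwise up to 0.127). Gpc1 kept its call except without control replicate 1 (adjusted p = 0.0687). Cd44, an adhesion receptor of activated T cells that was chosen after its values were seen, read 10.05, 10.53 and 10.45 in the controls and 9.21 to 9.98 in the knockouts (-0.72, adjusted p = 0.0265, and 0.0666 without CBP-deleted replicate 1). Cd44 also lost its call without CBP-deleted replicate 3 or control replicate 2. Ctla4, an inhibitory receptor of Treg cells, was higher, with controls of 10.94, 10.46 and 10.79 and knockouts of 11.03 to 11.34 (0.44, SE 0.09, adjusted p = 0.0244). Its call was lost without CBP-deleted replicate 1 or 2 or p300-deleted replicate 2 (adjusted p up to 0.0661). Cd2, a T cell adhesion receptor, rose in a tight pattern, from 10.95 to 11.09 in the controls to 11.36 to 11.57 in the knockouts (0.44, SE 0.06, adjusted p = 0.00613).

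Cpq, a carboxypeptidase, read 4.74, 5.53 and 4.43 in the controls and 6.22 to 6.67 in the knockouts, a gap of 0.69 and a rise of 2.83-fold (SE 0.21 on the log2 scale, adjusted p = 0.00613). Its second probe set differed by -0.15, so the rise rests on 1 probe set. Dynlt3, a light chain of the dynein motor, read 8.10, 8.02 and 8.11 in the controls and 8.80 to 9.20 in the knockouts (0.90, SE 0.09, adjusted p = 0.00131). Its 2 other probe sets were 0.54 and 1.05 higher. Tbc1d19, a Rab GTPase regulator by its domain, read 4.98, 4.75 and 4.89 in the controls and 5.61 to 5.81 in the knockouts (0.83, SE 0.09, adjusted p = 0.00215). Stfa3, a stefin that inhibits cysteine proteases, rose by 1.48, Pon3, a paraoxonase, by 1.06, Tmem242, a membrane protein, by 1.02 and the noncoding Gt(ROSA)26Sor by 0.91, all with calls kept without each array in turn. Cdkn1b, the cell cycle inhibitor p27, read 8.70, 7.77 and 9.14 in the controls and 9.36 to 10.15 in the knockouts (1.16, adjusted p = 0.0205). The second Cdkn1b probe set was -0.65, in the opposite direction, and the call was lost without p300-deleted replicate 2 or control replicate 1 (adjusted p up to 0.0687).

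Of lower intracellular genes, Crip1, a small LIM domain protein, had close readings in each group, 12.11, 12.14 and 12.22 in the controls and 11.37 to 11.68 in the knockouts (-0.59, SE 0.06, adjusted p = 0.00181). She, an adaptor with an SH2 domain, read 6.37, 6.39 and 6.41 in the controls and 5.15 to 5.94 in the knockouts (-0.89, adjusted p = 0.00262). Ptpn5, a tyrosine phosphatase, fell by 0.89, and its 2 other probe sets by less (-0.12 and -0.30). Chst2, a sulfotransferase that helps make selectin ligands, fell by 0.89 as well, and Sytl2, a synaptotagmin-like factor of vesicle traffic, by 0.79. Spib, an Ets family transcription factor, read 6.73, 6.73 and 6.71 in the controls and 5.29 to 6.12 in the knockouts, a gap of 0.59 and a difference of -0.97 (adjusted p = 0.0143). Spib missed the threshold without control replicate 1 (adjusted p = 0.0671).

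Several interferon-induced genes were higher in the knockouts. These genes are switched on by the factor ISGF3, which binds the interferon-stimulated response element and works with CBP and p300. Of 21 measured genes 5 rose and 0 fell, against 2.18% and 2.13% of all genes, and 19 had a positive difference. The list's median was 0.25 pooled, 0.30 for CBP deletion and 0.20 for p300 deletion, beside -0.03 over all genes. Oasl2, of the oligoadenylate synthetase family, read 5.64, 4.99 and 4.63 in the controls, 6.44, 6.23 and 6.41 in CBP-deleted and 5.74, 6.15 and 6.64 in p300-deleted cells. It rose 2.26-fold (log2 1.18, SE 0.22, adjusted p = 0.0156) and kept its call without each array. Ifit3, which blocks viral translation with its relatives, read 7.20, 6.65 and 6.60 in the controls and 7.31 to 8.10 in the knockouts (0.88, adjusted p = 0.0182). Ifit1, a sensor of viral RNA caps, read 7.82, 7.63 and 7.22 in the controls and 7.83 to 8.74 in the knockouts (0.76, adjusted p = 0.0398), with a gap of only 0.0070. Oas2, which makes the messenger that activates RNase L, rose by 0.89, and Rtp4, an interferon-induced chaperone of receptors, by 0.57, but both had p300-deleted replicate 1 within the control range. That replicate was also the lowest p300-deleted reading of Oasl2, Ifit1 and Ifit3. The second probe set of Rtp4 gave 0.07.

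This group was sensitive to single arrays. Without 1 array the number of the 21 that passed was 1 to 4, with 1 left without p300-deleted replicate 2. With control replicate 3 and p300-deleted replicate 2 both left out, 0 passed and the median was 0.19. Ifit3 lost its call without p300-deleted replicate 2 (adjusted p = 0.0505), and Ifit1, Oas2 and Rtp4 lost theirs without most arrays. Ifit1 kept its call only without p300-deleted replicate 1 or 3, Oas2 only without control replicate 1 and Rtp4 only without p300-deleted replicate 1 or control replicate 2, with adjusted p otherwise up to 0.0861, 0.0864 and 0.104. With the Gapdh difference as a covariate 0 of the 21 passed. The type I interferon genes Parp9 (0.42), Trim30a (0.31) and Nmi (0.41), which are not in the list and were picked after their values were seen, were separated and past the test too. Parp9 lost its call without CBP-deleted replicate 2 or 3 or p300-deleted replicate 2, Trim30a on leaving out any array other than control replicate 2 or 3 and Nmi any other than p300-deleted replicate 3 or control replicate 2. The interferon-gamma inducible GTPases, which attack vacuoles of parasites, moved both ways. Of 10 measured genes Iigp1 (0.68) and Gbp6 (0.42) rose and Gbp2b fell, against 2.18% and 2.13% of all genes. Gbp2b read 6.18, 6.45 and 5.72 in the controls and 4.57 to 5.48 in the knockouts, a fall of 2.24-fold (-1.16, SE 0.16, adjusted p = 0.00613). Gbp6 kept its call only without control replicate 1 (adjusted p otherwise up to 0.0953).

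The promoters of these 3 interferon-inducible genes are shown because 2 of them rose and 1 fell while all hold the same element. Capitals mark each match to the interferon-stimulated response element, searched as TTTCNNTTTC on both strands, and, in Ifit3, 1 AP-1 site (TGANTCA) nearest the start. The sequences are the 250 bases before the transcription start, from RefSeq on GRCm38.p6, in the direction of transcription. Ifit1 lies at chr19:34640639-34640888, Ifit3 at chr19:34583279-34583528 and Gbp2b at chr3:142594597-142594846, all on the + strand.
Ifit1: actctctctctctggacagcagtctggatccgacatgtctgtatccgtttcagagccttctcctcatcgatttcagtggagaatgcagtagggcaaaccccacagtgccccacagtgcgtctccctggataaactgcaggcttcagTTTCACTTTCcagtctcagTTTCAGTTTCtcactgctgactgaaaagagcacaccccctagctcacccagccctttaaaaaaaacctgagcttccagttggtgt
Ifit3: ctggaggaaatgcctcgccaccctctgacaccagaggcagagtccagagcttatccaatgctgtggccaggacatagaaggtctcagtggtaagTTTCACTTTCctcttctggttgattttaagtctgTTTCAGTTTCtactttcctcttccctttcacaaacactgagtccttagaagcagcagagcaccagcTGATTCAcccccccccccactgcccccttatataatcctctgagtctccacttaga
Gbp2b: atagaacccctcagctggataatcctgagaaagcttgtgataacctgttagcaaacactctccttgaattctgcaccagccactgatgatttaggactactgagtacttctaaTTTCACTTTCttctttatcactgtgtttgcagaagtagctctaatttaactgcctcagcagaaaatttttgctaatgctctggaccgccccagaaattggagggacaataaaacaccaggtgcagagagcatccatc
The element was found at bases -104 to -95 and -85 to -76 of Ifit1, at -156 to -147 and -122 to -113 of Ifit3, and at -137 to -128 of Gbp2b. It occurs in 1131 of the 32851 promoters of the table (3.44%, over 250 bases before to 50 after the start). Of the 61 named genes that were separated and past the test, 39 had a promoter in the table, and 3 held the element, these 3. That element was added to the search after the values were seen. Among the same 39, 0 held the full CREB site (TGACGTCA, 1.79% of promoters), 6 an AP-1 site (7.81%), 2 the forkhead site GTAAACA (3.65%), 5 the kappaB consensus (4.51%) and 0 the CArG box (1.63%). The heat shock element GAANNTTC was held by 5 (7.86%) and the cell cycle homology element TTTGAA by 10 (17.9%). With under 80% of the genes matched (75.3% of the 223 higher, 79.2% of the 192 lower and 63.9% of the named genes), no comparison of the gene sets was made. A match shows these letters only, not a bound site.

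Among NF-kappaB targets 6 fell. NF-kappaB carries signals from TNF and T cell receptors to the nucleus, and its subunit RelA binds CBP and p300. Of 19 measured targets 0 rose and 6 fell, against 2.13% of all genes, with a median of -0.20 pooled. The median was -0.42 for CBP deletion and 0.06 for p300 deletion, and 7 of the 19 differed between the knockouts (5.2% of all genes did). Only 3 of the 6 were separated. Relb, a subunit of the alternative pathway, read 8.71, 8.66 and 8.76 in the controls, 8.15, 8.15 and 8.24 in CBP-deleted and 8.33, 8.21 and 8.42 in p300-deleted cells (-0.46, SE 0.08, adjusted p = 0.00994). It passed without each array in turn. Ccl5 was the second. Bcl2l1, the survival factor BCL-XL, read 8.20, 8.25 and 8.15 in the controls and 7.85 to 7.97 in the knockouts (-0.29, adjusted p = 0.0443). Its mean over 4 probe sets was 0.05 and thus of the other sign, and the call held only without control replicate 3 (adjusted p otherwise up to 0.123). Nfkbie, an inhibitor of NF-kappaB, fell by 0.48, Icam1, an adhesion molecule, by 0.45 and Bcl3, a nuclear cofactor, by 0.38, with overlapping arrays. Nfkbie kept its call only without control replicate 3, Icam1 only without p300-deleted replicate 1 or control replicate 2 and Bcl3 only without CBP-deleted replicate 1, p300-deleted replicate 3 or control replicate 3. Over the 9 sets that leave out 1 array, 1 to 5 targets were lower, with 1 without CBP-deleted replicate 2, p300-deleted replicate 2 or control replicate 1. Both TNF receptors, chosen after their values were seen, were separated. Tnfrsf1b, the form that Treg cells carry, read 9.54, 9.57 and 9.91 in the controls and 8.92 to 9.33 in the knockouts (-0.60, adjusted p = 0.0102), and kept its call without each array. Its second probe set differed by -0.04, so this fall rests on 1 probe set. Tnfrsf1a differed by -0.46 (adjusted p = 0.0239) and lost its call without CBP-deleted replicate 2 or 3, p300-deleted replicate 2 or control replicate 1 (up to 0.103).

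TGF-beta and BMP signals act through Smad proteins, which also bind CBP and p300, and the Id genes are their classical targets. Of 25 measured genes of this pathway 0 rose and 3 fell, Tgfb1, Id2 and Id3, against 2.18% and 2.13% of all genes, and the median was -0.02. Id3, which restrains E proteins and supports Treg cells, read 9.08, 9.47 and 8.97 in the controls, 8.16, 7.87 and 7.92 in CBP-deleted and 8.41, 8.82 and 8.65 in p300-deleted cells. It fell 1.82-fold (-0.87, SE 0.13, adjusted p = 0.00658), further in CBP-deleted cells (difference between the knockouts -0.64, adjusted p = 0.0251). Id2 read 11.24, 11.33 and 11.004 in the controls and 10.26 to 10.95 in the knockouts (-0.62, adjusted p = 0.0327), and 1 of its 2 other probe sets had the other sign (-0.57 and 0.21). Id1 was separated too but missed the threshold (-0.44, adjusted p = 0.0503). Id2 lost its call without CBP-deleted replicate 1 or 2, p300-deleted replicate 2 or control replicate 1 or 2 (adjusted p up to 0.127), while Id3 kept it. Between 1 and 4 of the 25 were lower when 1 array was left out, with 1 without CBP-deleted replicate 1 or 2, p300-deleted replicate 2 or control replicate 1.

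CREB was the factor for which CBP was named. Of 23 measured CREB targets Penk and Il10 rose and Tgfb1 fell, with a median of -0.03, and 4 differed between the knockouts. Over all genes 2.18% rose, 2.13% fell and 5.2% differed between the knockouts. Of 17 measured genes of CBP, p300 and their partners 0 rose and 1 fell, Crtc3, a coactivator that CREB uses. Crtc3 read 7.66, 8.03 and 7.51 in the controls and 6.90 to 7.38 in the knockouts (-0.62, SE 0.14, adjusted p = 0.0363). Its call held only without CBP-deleted replicate 2, p300-deleted replicate 3 or control replicate 3 (adjusted p otherwise up to 0.105). Cited2, which competes for the same domain of CBP and p300 as other factors, was separated with a difference of -0.27 (adjusted p = 0.0613). Of 7 measured acetyltransferases and 17 genes of acetylation readers and erasers, 0 rose and 0 fell in limma's test. At an unadjusted p under 0.05 there were 1 higher and 2 lower readers and erasers, and with control replicate 3 left out 1 was lower. The share of all genes at that unadjusted threshold was not counted, here or below, so such counts have no background beside them. The largest differences among the readers and erasers were those of Brd2, a bromodomain protein (-0.43, adjusted p = 0.195), and Hdac5, a deacetylase (-0.37, adjusted p = 0.125).

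Genes of the Treg signature moved in both directions. Of 52 measured genes 7 rose and 6 fell, against 2.18% and 2.13% of all genes, with 25 of 52 positive and a median of -0.04. Those that rose were Penk, Il10, Ctla4, Ahr, the aryl hydrocarbon receptor (0.70), Plagl1, a zinc finger factor (0.73), Cd86, a ligand of Ctla4 (0.53), and Rgs1, a regulator of G protein signals (0.39). Those that fell were Foxp3, Klrg1, Tgfb1, Ecm1, an extracellular matrix protein (-0.79), Swap70 (-0.44) and Capg (-0.34), which bind actin. Of these 13 genes 6 were separated, 3 in each direction, and 12 of the 52 differed between the knockouts, against 5.2% of all genes. Leaving out 1 array gave 3 to 11 genes higher and 2 to 9 lower, with the fewest of both without any CBP-deleted array, p300-deleted replicate 2 or control replicate 1. Ahr kept its call only without p300-deleted replicate 2 or control replicate 3, Plagl1 only without control replicate 3, Swap70 only without p300-deleted replicate 1 or control replicate 2 and Capg only without p300-deleted replicate 3 or control replicate 2 or 3, while Ecm1 kept it without each array. Cd86 lost it without CBP-deleted replicate 1 or 3, p300-deleted replicate 2 or control replicate 1 and Rgs1 without CBP-deleted replicate 2 or 3, p300-deleted replicate 2 or control replicate 1. The second probe set of Ahr gave -0.08, and its difference was 1.21 for CBP deletion and 0.20 for p300 deletion. The highest adjusted p was 0.136 for Ahr, 0.0909 for Plagl1, 0.105 for Swap70, 0.0676 for Capg, 0.0993 for Cd86 and 0.0952 for Rgs1. Plagl1, Cd86, Rgs1, Ecm1, Swap70 and Capg fall outside the rule for named genes and were chosen after their values were seen.

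Of 15 Th1 genes of effector T cells 0 rose and 3 fell, Ccl5 among them, against 2.18% and 2.13% of all genes, and the median was -0.25. Tbx21, the lineage factor of Th1 cells, read 8.48, 8.70 and 8.12 in the controls and 7.17 to 8.37 in the knockouts (-0.91, adjusted p = 0.0305), with p300-deleted replicate 1 inside the control range. Il12rb1, 1 subunit of the receptor for interleukin-12, differed by -0.51 (adjusted p = 0.0488). Tbx21 kept its call only without p300-deleted replicate 1 or 3 or control replicate 3 (adjusted p otherwise up to 0.117) and Il12rb1 only without p300-deleted replicate 1 (up to 0.164). Between 0 and 4 Th1 genes were lower when 1 array was left out, with 0 without CBP-deleted replicate 1 or 2, p300-deleted replicate 2 or control replicate 1. Of 14 Th2, Tfh and Th17 genes Il21 and Ahr rose and 0 fell (median 0.05). Il17a was separated at a low level, 4.52 to 4.53 in the controls and 4.62 to 6.00 in the knockouts (0.56, adjusted p = 0.200). Of 19 IL-2 and STAT5 genes 0 rose and 2 fell (median -0.22), Il10ra, a chain of the IL-10 receptor (-0.51), and Gadd45g, a stress-induced gene (-0.48). That count was 0 to 7 when 1 array was left out, with 0 without any CBP-deleted array, p300-deleted replicate 1 or control replicate 1 and 7 without control replicate 3. Il10ra kept its call only without control replicate 2 or 3 (adjusted p otherwise up to 0.161) and Gadd45g only without p300-deleted replicate 2 or 3 or control replicate 3 (up to 0.116). The other probe sets of Il10ra gave -0.01 and 0.07. Without control replicate 3, 2 Th2, Tfh and Th17 genes were lower.

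Of 25 immediate early genes, induced within minutes of a stimulus without new protein, 2 rose and 3 fell, and 12 differed between the knockouts, against 2.18%, 2.13% and 5.2% of all genes. None was separated. Jun, an AP-1 subunit, read 11.22, 11.17 and 11.76 in the controls and 11.30 to 11.63 in CBP-deleted cells but 12.29 to 12.44 in p300-deleted cells (pooled 0.53, adjusted p = 0.0347). Btg2, an antiproliferative gene that p53 induces, rose by 0.97, while Zfp36, which destabilises cytokine mRNAs, fell by 0.42, Ier5 by 0.46 and Jund, another AP-1 subunit outside the rule for named genes, by 0.35. Leaving out 1 array gave 0 to 2 higher and 0 to 5 lower, with 0 lower without control replicate 1. Jun kept its call only without CBP-deleted replicate 3 or control replicate 3, Btg2 only without p300-deleted replicate 1 or control replicate 3 and Zfp36 only without CBP-deleted replicate 1 or control replicate 2 or 3, with adjusted p otherwise up to 0.154, 0.164 and 0.171. Ier5 and Jund lost theirs without control replicate 1 (0.0510 and 0.0831). Zfp36 differed by -0.87 for CBP deletion and 0.03 for p300 deletion. Ier5 differed by -0.74 and -0.18, and its other probe sets gave 0.45 and -0.50. The second probe set of Jun gave 0.01. T cell receptor signalling, with 24 measured genes, had 0 higher and 1 lower. That gene was Csk, the kinase that restrains Lck (-0.36, adjusted p = 0.0358), which kept its call only without p300-deleted replicate 3 or control replicate 3 (adjusted p otherwise up to 0.150). Of 21 chemokine and homing receptors 0 rose and 1 fell, Selplg, the ligand of P-selectin (-0.26, adjusted p = 0.0305). Its call held only without p300-deleted replicate 3 or control replicate 2 or 3 (adjusted p otherwise up to 0.116).

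Among metabolic lists, 1 of 19 cholesterol synthesis genes rose and 2 fell, against 2.18% and 2.13% of all genes, with a median of -0.22 (-0.15 for CBP deletion and -0.23 for p300 deletion), and 0 differed between the knockouts. Within this list 8 of 19 genes were separated, 2 higher and 6 lower, against 3.72% and 4.63% of all genes. Hmgcs1, which makes the substrate of the rate-limiting step, read 8.41, 8.44 and 8.36 in the controls and 7.78 to 8.10 in the knockouts (-0.44, SE 0.09, adjusted p = 0.0202). Stard4, a sterol carrier, fell by 0.49. Mvk, Mvd, Lss and Dhcr7, enzymes of the pathway, were separated with differences of -0.23, -0.38, -0.33 and -0.22 that did not pass. Sc5d, a late enzyme, rose by 0.53 and Nsdhl was 0.22 higher without passing. The second probe set of Sc5d gave -0.06 and that of Stard4 -0.1. Other probe sets of Hmgcs1 gave -0.39, -0.41 and 0. Hmgcs1 lost its call without CBP-deleted replicate 1 or control replicate 1 (adjusted p up to 0.0779), while Stard4 kept it only without p300-deleted replicate 3 and Sc5d only without p300-deleted replicate 3 or control replicate 3 (adjusted p otherwise up to 0.110 and 0.0901). With 1 array left out 0 or 1 gene was higher and 0 to 3 lower, with 0 lower without CBP-deleted replicate 1 or control replicate 1.

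Of 24 genes of glycolysis and the hypoxia factor HIF, which needs CBP and p300 to activate its targets, 0 rose and 3 fell, against the same shares (median -0.08). They were Adm, Pkm, the pyruvate kinase (-0.26), and Slc2a3, the glucose transporter GLUT3. Slc2a3 read 10.85, 10.65 and 10.63 in the controls, 9.76, 9.72 and 9.71 in CBP-deleted and 10.62, 10.43 and 10.36 in p300-deleted cells (-0.61, SE 0.08, adjusted p = 0.00466). Its fall was larger in CBP-deleted cells (difference between the knockouts -0.74, adjusted p = 0.00169), and its 3 other probe sets read 0.08, 0.00 and -0.67. With shared probe sets left out its difference was 0.08, of the other sign. Pkm kept its call only without control replicate 3 (adjusted p otherwise up to 0.164). Of 51 oxidative phosphorylation genes 1 rose and 0 fell, Uqcrc2 of complex III (0.33, adjusted p = 0.0295), which kept its call only without p300-deleted replicate 3 or control replicate 2 or 3 (adjusted p otherwise up to 0.126). The second Uqcrc2 probe set gave 0.05. Leaving out 1 array gave 0 to 5 higher in that list, with 0 without any CBP-deleted array, p300-deleted replicate 1 or 2 or control replicate 1, and the Gapdh difference as a covariate gave 8. Of 20 p53 targets Fas, the death receptor (0.42), and Btg2 rose and Sesn1, a sestrin (-0.64), fell. Fas kept its call only without p300-deleted replicate 1 or 3 or control replicate 3 (adjusted p otherwise up to 0.0834) and Sesn1 lost it without control replicate 1 (0.0510). Of 14 BCL2 family genes 0 rose and 1 fell, Bcl2l1. Of 18 heat shock proteins 0 rose and 0 fell in limma's test (3 and 3 at an unadjusted p under 0.05, with no share of all genes counted). The largest differences were those of Hspa1b (-0.35, adjusted p = 0.104) and Hspe1 (0.24, adjusted p = 0.211).

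**Figure D2:**
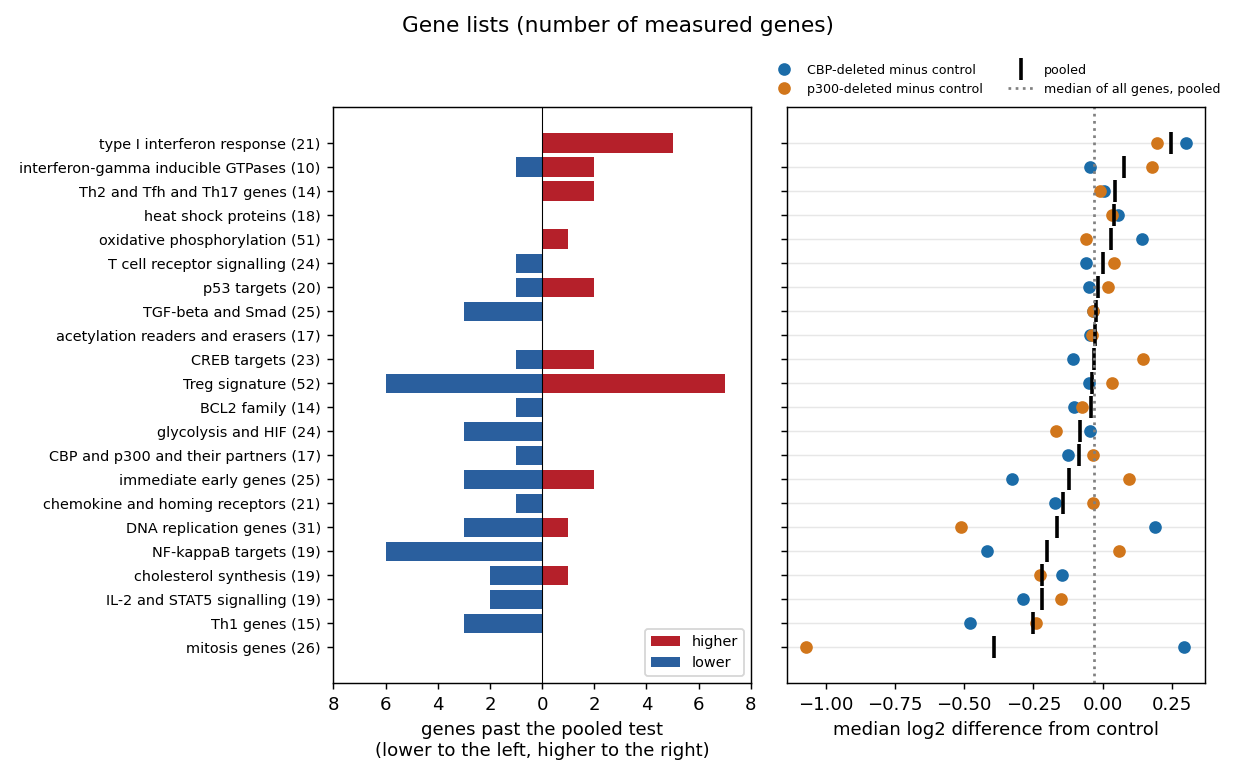
For 22 gene lists, the number of genes that passed the pooled test (left, lower to the left of 0 and higher to the right) and the median log2 difference from control (right; blue CBP-deleted, orange p300-deleted, black bar pooled, dotted line the median of all genes). The type I interferon list has 5 of 21 higher and NF-kappaB targets 6 of 19 lower, while the mitosis list has 0 of 26 in either direction with its knockout medians at 0.30 and -1.07.

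Further groups were counted after the values of the 415 genes had been seen. Of 6 protein disulfide isomerases, which fold secreted proteins in the endoplasmic reticulum, 4 rose and 0 fell, against 2.18% and 2.13% of all genes, with a median of 0.68. Pdia3 read 10.20, 9.65 and 10.82 in the controls and 10.87 to 11.25 in the knockouts (0.83, SE 0.19, adjusted p = 0.0347), and Erp44 8.22, 8.25 and 8.70 against 8.86 to 9.29 (0.66, adjusted p = 0.0140). P4hb was 0.72 and Pdia4 0.69 higher, both past the test, though Pdia4 overlapped the controls and its second probe set was -0.13. Pdia3 and P4hb kept their calls only without p300-deleted replicate 3 or control replicate 3 and Pdia4 only without control replicate 3, and Erp44 lost it without control replicate 1 (0.0726). Of 12 translocon and signal peptide genes Ssr3 (0.76) and Sec63 (0.43) rose, and of 9 oligosaccharyltransferase genes Ostc (0.38). Ssr3 lost its call without control replicate 1 (0.0722), Sec63 kept it only without p300-deleted replicate 3 or control replicate 3 and Ostc lost it without CBP-deleted replicate 1 or 3, p300-deleted replicate 2 or control replicate 1. These genes are also abundant in plasma cells, whose markers were higher in p300-deleted cells (9.37 to 9.75 against 8.54 to 8.73 in the controls) with a list median of 0.80. In CBP-deleted cells they averaged 8.72 to 8.99, the lowest array within the range of the controls, with a list median of -0.04. The part of plasma cells in these differences was not tested. Among 11 S100a proteins, which bind calcium, 0 rose and 3 fell. S100a4 read 11.33, 11.26 and 11.69 in the controls and 10.43 to 10.95 in the knockouts (-0.66, adjusted p = 0.0127), S100a6 differed by -0.65 and S100a10 by -0.34. S100a4 kept its call without each array, S100a6 lost it without CBP-deleted replicate 1 or 2, p300-deleted replicate 2 or control replicate 1 and S100a10 without CBP-deleted replicate 1, p300-deleted replicate 2 or control replicate 1. Casp1 and Casp4, the inflammatory caspases, rose together. Casp1 read 7.54, 7.61 and 7.74 in the controls and 8.04 to 8.48 in the knockouts (0.69, SE 0.10, adjusted p = 0.00648), and Casp4 was 0.70 higher (adjusted p = 0.0216). Casp1 kept its call without each array, and Casp4 lost it without p300-deleted replicate 2 or control replicate 1 (up to 0.0934).

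Markers of other cells are given for each whole list, and some of them were higher in the knockouts. Neutrophil and myeloid markers were higher at all 16 measured genes, with a median of 1.09. Their mean level was 4.55 to 5.23 in the controls, 5.21 to 6.87 in CBP-deleted and 5.49 to 7.10 in p300-deleted cells, highest in CBP-deleted replicate 3 and p300-deleted replicate 1, and Itgam was under the level of Xist in all arrays. Over all genes 3.72% were separated as higher and 2.18% passed the test as higher. Of the 16, 6 were separated and 1 passed. That gene was Camp, the antimicrobial cathelicidin, which read 4.15, 3.85 and 4.37 in the controls, 5.34, 4.76 and 6.52 in CBP-deleted and 7.27, 5.16 and 6.32 in p300-deleted cells (1.77, SE 0.42, adjusted p = 0.0387). Its call held only without CBP-deleted replicate 2, p300-deleted replicate 2 or control replicate 3 (adjusted p otherwise up to 0.131). Without control replicate 3 and p300-deleted replicate 2 together, 4 of the 16 passed. S100a8, a calcium-binding protein of neutrophils that was chosen after its values were seen, read 6.98, 4.92 and 6.99 in the controls and 7.64 to 11.01 in the knockouts, a separated difference of 2.51 that did not pass (SE 0.75, adjusted p = 0.0879). Mast cell and basophil markers averaged 4.59 to 4.71 in the controls, 4.54 to 5.44 in CBP-deleted and 5.28 to 5.76 in p300-deleted cells, with Ms4a2 and Mcpt1 under the level of Xist. Of those 11 only Mcpt8, a basophil protease, passed. It read 4.79, 4.59 and 5.25 in the controls, 5.88, 5.88 and 7.20 in CBP-deleted and 8.27, 7.21 and 6.47 in p300-deleted cells (1.94, SE 0.37, adjusted p = 0.0170). Without control replicate 1 its adjusted p was 0.0791, and 0 of the list passed. The part of other cells in the rise of Camp, Mcpt8 and other separated genes was not tested.

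Plasma cell markers averaged 8.54 to 8.73 in the controls, 8.72 to 8.99 in CBP-deleted and 9.37 to 9.75 in p300-deleted cells. Of these 7 markers 2 rose, against 2.18% of all genes. Igha, the heavy chain of IgA, read 11.28, 11.75 and 12.11 in the controls, 12.47, 12.99 and 13.13 in CBP-deleted and 13.89, 13.72 and 13.80 in p300-deleted cells (1.62, SE 0.17, adjusted p = 0.00134). Its other probe sets were 1.79 and 2.02 higher. Tnfrsf17, the receptor BCMA, rose by 1.23 but was not separated. Among 12 markers of CD8 T cells and NK cells, Cd8b1, a chain of CD8, and the granzyme gene Gzmk rose. Gzmk read 5.49, 5.29 and 5.26 in the controls and 5.68 to 6.55 in the knockouts (0.82, adjusted p = 0.0129), and Cd8b1 6.53, 6.57 and 6.67 against 6.71 to 7.47 (0.53, adjusted p = 0.0180). Leaving out 1 array gave 1 to 4 higher, with 1 without p300-deleted replicate 2. Cd8b1 lost its call without p300-deleted replicate 2 or control replicate 1 (up to 0.0795). The list averaged 6.87 to 7.15 in the controls, 6.92 to 7.30 in CBP-deleted and 7.15 to 7.54 in p300-deleted cells.

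Of 10 B cell, 10 dendritic cell and 4 red cell markers 0 passed limma's test, which 2.18% of all genes passed as higher and 2.13% as lower. With lists this short, a count of 0 is near those shares. At an unadjusted p under 0.05, 4 B cell, 0 dendritic cell and 1 red cell markers were lower and 0 higher, and without control replicate 3, 2 B cell markers passed as lower. How many of all genes reached that unadjusted threshold was not counted, so these counts cannot be set against a background. B cell markers averaged 7.15 to 7.28 in the controls, 6.61 to 6.92 in CBP-deleted and 6.81 to 7.28 in p300-deleted cells, with Pax5, Fcer2a and Cr2 under the level of Xist. The largest B cell differences were Ms4a1 (-0.69, adjusted p = 0.116) and Cd79a (-0.62, SE 0.20). Dendritic cell markers averaged 6.68 to 7.23, 6.45 to 6.95 and 6.70 to 7.11 in the same order, with Cd209a and Cd74 both at -0.21, and red cell markers 3.94 to 4.40, 3.68 to 3.80 and 3.83 to 4.18, with Alas2 at -0.87 (adjusted p = 0.0712) and Klf1 at 0.24. Markers of naive conventional T cells averaged 9.77 to 9.98, 9.998 to 10.35 and 9.75 to 10.13. Of those 7, Igfbp4, which binds insulin-like growth factors, rose by 0.91 with p300-deleted replicate 1 inside the control range. Pan T cell markers averaged 10.92 to 11.07, 11.02 to 11.10 and 11.19 to 11.28, and Cd2 alone of 7 passed. The T cell markers of the labelled cell type were thus high in all arrays. The 5 Treg cell markers, Foxp3 included, averaged 8.92 to 9.26 in the controls and 7.82 to 8.03 in the knockouts, but 3 of the 5 had a positive difference and their median was 0.14. Without Foxp3, a choice made after the values were seen, the mean of the other 4 was 8.75 to 9.20 in the controls, 9.04 to 9.26 in CBP-deleted and 9.14 to 9.24 in p300-deleted cells, so that the groups overlapped.

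**Figure D3:**
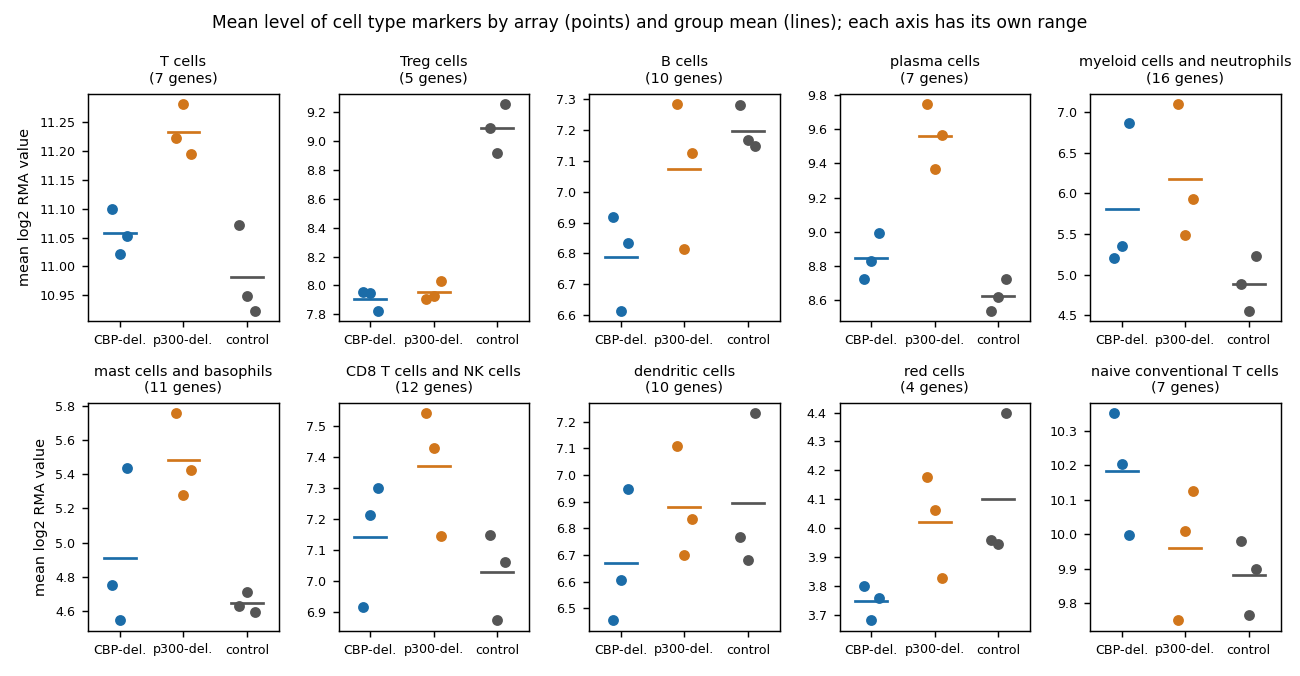
Mean log2 RMA value of the markers of 10 cell types, 1 point per array and 1 line per group mean (CBP-deleted, p300-deleted, control from left to right); each panel has its own vertical range. Neutrophil and myeloid markers range from 4.55 to 5.23 in the controls and up to 7.10 in the knockouts, and the mean of the 5 Treg cell markers, which holds the low Foxp3 reading, is lower in the 6 knockout arrays although 3 of the 5 had a positive difference.

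Whether the knockouts differed from each other at the separated genes was asked by setting the knockouts against each other, with the control arrays entering only the estimate of the spread. The number of genes that differed, 645, became 1041 without control replicate 2, 987 without control replicate 3 and 632 without control replicate 1. Without CBP-deleted replicate 1, 2 or 3 they became 372, 212 and 298, and without p300-deleted replicate 1, 2 or 3 336, 287 and 426. Of the 415 separated genes past the pooled test 26 differed between the knockouts (6.27%), beside 5.2% of all genes. Of the 26, 8 were among the higher and 18 among the lower genes. The rule bears on this count, since it keeps both knockouts on one side of the controls. The largest differences were in genes at which 1 knockout carried most of the shift. Tmprss13, a membrane serine protease, read 5.40, 5.03 and 5.64 in the controls, 4.32, 4.76 and 4.40 in CBP-deleted and 3.13, 3.28 and 3.01 in p300-deleted cells, the last under the level of Xist. Its pooled fall was 1.54 on the log2 scale (SE 0.15, adjusted p = 0.00101), with the knockouts 1.35 apart (adjusted p = 0.00169), and both sizes are lower bounds. Sh3gl3, an endophilin, read 6.82, 6.69 and 6.60 in the controls, 6.98, 6.88 and 7.07 in CBP-deleted and 8.42, 8.38 and 8.04 in p300-deleted cells. Its pooled rise of 0.92 (adjusted p = 0.00200) was 0.27 for CBP deletion and 1.57 for p300 deletion. Sdc4, a syndecan, read 7.96, 8.36 and 8.15 in the controls, 6.69, 6.88 and 6.85 in CBP-deleted and 7.87, 7.83 and 7.96 in p300-deleted cells. Its pooled fall of 0.81 was thus mostly that of CBP-deleted cells (-1.35 against -0.27), with a gap to the controls of 0.0072. Csrp2, a LIM domain protein, fell further in p300-deleted cells (-1.31 against -0.46), and Sostdc1 rose further in CBP-deleted cells (2.01 against 1.03). Penk was also 0.59 higher in CBP-deleted than in p300-deleted cells (adjusted p = 0.0297), and Igha 0.94 lower (-0.94, adjusted p = 0.0151).

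**Figure D4:**
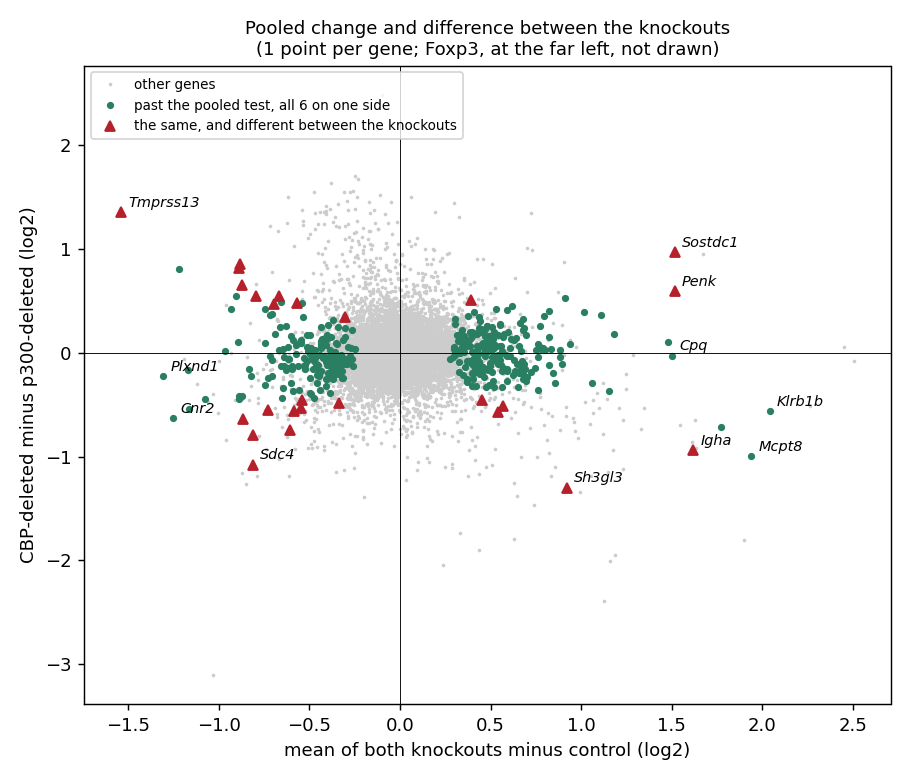
Each gene's pooled log2 difference from control (horizontal) against the difference CBP-deleted minus p300-deleted (vertical), 1 point per gene; Foxp3 is not drawn. Green points are the separated genes past the pooled test and red triangles the 26 of them (Foxp3 is not among these) that also differed between the knockouts, with Tmprss13, Sh3gl3, Sdc4, Sostdc1, Penk and Igha named.

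Pooling also hides genes. Of the 645 genes that differed between the knockouts, 495 had the knockouts on opposite sides of the control mean. Over all 12393 genes 4024 did. Choosing genes by the difference between the knockouts bears on the first count. The mitosis list had its knockout medians on opposite sides. Its 26 genes all differed between the knockouts, against 5.2% of all genes, with medians of 0.30 for CBP deletion and -1.07 for p300 deletion. Of the 26, 0 passed the pooled limma test (median -0.39), in which 2.18% of all genes rose and 2.13% fell. At an unadjusted p under 0.05, 0 of the 26 were higher and 8 lower, with no share of all genes counted at that threshold. Without control replicate 2, 3 of the 26 passed the pooled test as lower. Nek2 and Cenpe, which act in spindle assembly, had the largest pooled differences, -0.68 (adjusted p = 0.163) and -0.63 (0.250). Of 31 DNA replication genes 26 differed between the knockouts, against the same share of all genes. In the pooled test Rfc3, of the clamp loader, rose (0.43), against 2.18% of all genes. Mcm3, of the helicase (-0.42), Cdt1, a licensing factor (-0.35), and Ccne1, cyclin E (-0.48), fell, against 2.13%, with none separated. Without 1 array 0 to 2 of that list were higher and 0 to 3 lower, with 0 lower without CBP-deleted replicate 1 or 3 or p300-deleted replicate 2. Rfc3 kept its call only without p300-deleted replicate 3 or control replicate 3, Cdt1 only without control replicate 2 and Mcm3 only without p300-deleted replicate 1 or 3 or control replicate 2 or 3 (adjusted p otherwise up to 0.171, 0.120 and 0.0786). Ccne1 lost its call without CBP-deleted replicate 1 or 3 or p300-deleted replicate 2 (up to 0.0560). Mcm3 differed by 0.01 for CBP deletion and -0.86 for p300 deletion, and its other probe sets gave 0.10, -0.29, 0.32 and -0.38. Ccne1 differed by -0.09 for CBP deletion and -0.86 for p300 deletion. Immunoglobulin segments left out, the genes furthest apart between the knockouts on opposite sides were Apobec3, a cytidine deaminase that restricts retroviruses (2.49), Cbx7, a Polycomb protein (2.15), Prg2, an eosinophil granule protein (-1.73), Bub1 (1.70) and Birc5 (1.67), which act in mitosis, with pooled differences of -0.10, -0.12, 0.33, -0.25 and -0.23. The pooled sign of Apobec3 and Cbx7 turned without control replicate 1 or 3, and that of Bub1 and Birc5 without control replicate 3.

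Single arrays set the number of calls. The 415 became 107 without control replicate 1, 156 without p300-deleted replicate 2 and 863 without control replicate 3. It was 172, 198 and 186 when CBP-deleted replicate 1, 2 or 3 was left out. Of the 415, 80 passed in all 9 sets that leave out 1 array, 43 higher and 37 lower. With the 18S level as a covariate 114 separated genes passed, and with the Gapdh difference 126. After subtraction of array medians 216 genes were higher and 276 lower in the test, in place of 270 and 264. Taking the 6 knockout arrays as 1 group gave 154, since the spread between the knockouts then counts as error. Second probe sets give a check within the array. Of the 415 genes 187 had other probe sets, and for 131 of these all others had the same sign, for 160 at least 1. Over all 12393 genes 4956 had other probe sets, and for 2639 of these all others had the same sign, for 3598 at least 1. In 65 of the 187 another probe set was separated the same way, beside 458 of the 4956 over all genes.

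**Figure D5:**
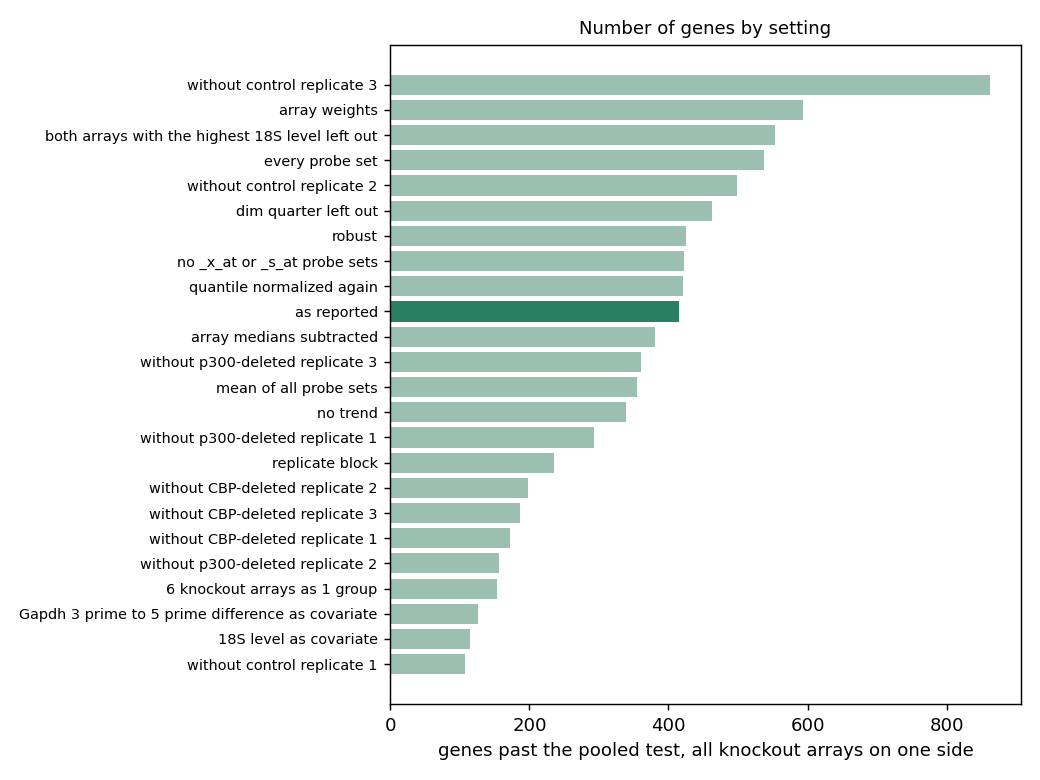
Number of separated genes past the pooled test (horizontal, from 0) under each setting (vertical), with the reported setting, 415 genes, in dark green. Leaving out control replicate 1 gives 107 and leaving out control replicate 3 gives 863.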

How the data were processed

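RNA of 9 samples of CD4+CD25+ cells was amplified and labelled with biotin, per the labels' protocols, and read on arrays with probe sets named in the Affymetrix style. The deposited values are log2, 1 per probe set and array, summarised with RMA per the submitters' processing notes; version and annotation are not given in the sources used here. They were used as deposited. RMA shrinks low values, which understates the change of dim genes.

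Of 22690 probe sets 64 controls were set aside. Of the other 22626, 20380 carry 1 gene symbol, 691 several and 1555 are unnamed here. The brightest probe set of a gene over all 9 arrays gave 12393 genes, named through RefSeq gene identifiers (24 without a match). limma 3.58.1 in R 4.3.3 fitted 3 group means (6 residual degrees of freedom, trend), with two-sided tests at 0.05 after adjusting p-values over every gene by Benjamini-Hochberg. Alternatives changed probe sets, normalization, model, covariates and arrays.

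Members and the 32 gene lists were chosen with earlier results of these data known. Named were Crebbp, Ep300, Foxp3 and Il2ra, the 15 largest changes each way, the 5 largest by t, the 3 widest gaps each way, genes at the edge of the rule, up to 5 that differ between or oppose in the knockouts, and up to 4 of each list. Other genes were chosen after their values were seen. p-values measure only the spread between these samples, which may be technical.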

Additional observations from a re-analysis of the deposited data

Results flagged for a closer look

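These named genes differed between the knockouts in limma's test of that difference, given here as CBP-deleted minus p300-deleted on the log2 scale. Among genes of the cell cycle they were Birc5 (1.67), Bub1 (1.70), Cenpe (1.25), Nek2 (1.18), Ccne1 (0.77), Mcm3 (0.87) and Rfc3 (0.51). Among immediate early genes they were Jun (-0.92), Ier5 (-0.57) and Zfp36 (-0.90). Higher in CBP-deleted cells were also Apobec3 (2.49), Cbx7 (2.15), Tmprss13 (1.35), Ahr (1.01), Sostdc1 (0.97), Igfbp4 (0.88), Csrp2 (0.85), Chst2 (0.82), Penk (0.59), Sytl2 (0.55) and Hspe1 (0.44). Higher in p300-deleted cells were also Prg2 (-1.73), Sh3gl3 (-1.30), Tnfrsf17 (-1.12), Sdc4 (-1.08), Igha (-0.94), Slc2a3 (-0.74), Id3 (-0.64) and Gbp6 (-0.48).

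Unnamed probe sets and those that name several genes stayed out of the comparison by gene. Of these 2246 probe sets, 62 passed the pooled test with all 6 knockout arrays on one side of the controls (2.76%), 48 higher and 14 lower, beside 2.37% of all 22626 probe sets.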

How the results depend on the processing

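The counts in this order are genes past the pooled test (534), those of them separated (415), separated genes (1035) and genes that differ between the knockouts (645). Leaving out 1 array gave 111 to 939, 107 to 863, 1161 to 2383 and 212 to 1041. By the rule, leaving arrays out can only add separated genes, since fewer readings then have to lie apart. With array weights 1242 passed the pooled test and 1467 differed between the knockouts. The 18S covariate gave 139 and 114 for the first pair, and 1 knockout group 154 for each of that pair. With the Gapdh covariate, chosen after seeing the data, 126 separated genes passed and 1182 genes differed. Without both arrays of the highest 18S level, also chosen after seeing the data, 2643 genes were separated, and 1809 when each probe set was tested separately. Replicate numbers did not pair the samples: 2 of 9 same-numbered pairs correlated over 0.1 (range -0.23 to 0.27), and with the replicate block 301, 236 and 524 genes were called. The counts stayed within 1.5 times under the other settings.

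Of 80 named genes past the pooled test, 38 passed without every single array, and 20 under every alternative other than the exact permutation test, which cannot go below 0.0238 with 84 assignments. Of the 415 separated genes past the pooled test 4 turned sign with the mean of all probe sets and 3 without probe sets ending in _x_at or _s_at. Of the named called genes 2 turned, Bcl2l1 with the mean of its probe sets (0.0451) and Slc2a3 without probe sets ending in _x_at or _s_at (0.0819). Of genes that did not pass, Il2ra turned with the Gapdh covariate (-0.17) and, leaving out 1 array, ranged from -0.00045 to 0.23. Over the same sets Apobec3 ranged from -0.52 to 0.17, Cbx7 from -0.55 to 0.14, Birc5 from -0.42 to 0.0712, Bub1 from -0.44 to 0.0583 and Cd209a from -0.41 to 0.0169. Without both high-18S arrays Apobec3 was 0.0901, Birc5 0.11, Bub1 0.11, Cbx7 0.17, Cd209a 0.0483 and Cd74 0.0398. The cause was not tested. Dim genes near the level of Xist have only a bound.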

Other observations

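Other separated genes past the pooled test, chosen after their values were seen, had these pooled log2 differences. Dpp4, a peptidase on activated T cells, was 0.59 higher (limma adjusted p = 0.00796), with a second probe set at 0.59. Nampt, which recycles NAD, was 0.59 higher, with a second probe set at 0.32, and Cd200, an inhibitory ligand, was 0.54 higher. Il21r, the receptor of Il21, was 0.47 and Slamf6, a receptor of follicular helper cells, 0.49 higher. Axin2, a target of Wnt signals, was lower (-0.44, with a second probe set at 0.06), as was the retinoic acid receptor Rara (-0.45, adjusted p = 0.0479). Dpp4 kept its call without each array. Nampt lost it without control replicate 1 (adjusted p = 0.0503), Il21r without CBP-deleted replicate 1, p300-deleted replicate 2 or control replicate 1, Axin2 without CBP-deleted replicate 1 or 3, p300-deleted replicate 2 or control replicate 1 and Slamf6 without any CBP-deleted array or p300-deleted replicate 1 or 2. Cd200 kept it only without CBP-deleted replicate 1, p300-deleted replicate 3 or control replicate 3 and Rara only without control replicate 2 or 3.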
